A study of Mus musculus with 6 samples.

Results

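Thyroid hormone reaches the hypothalamus as thyroxine and acts there after local activation. This account covers 7 genes of that route: Dio1 and Dio2, which encode deiodinases; Trh and Trhr, which encode thyrotropin-releasing hormone and its receptor; Thra and Thrb, which encode the thyroid hormone receptors; and Slco1c1, which encodes a thyroxine transporter. Every non-control probe whose annotated transcript belongs to 1 of these genes was taken, which gave 12 of the 39429 probes on the array; the 7 genes are among 19751 that could be named. Of the 12 probes, 11 were among the 28064 bright enough to be tested, and the other, a probe of Dio1, stayed at background throughout. The rule used gene names and no measured value.

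The arrays hold total RNA from whole hypothalamus of male mice, strain C57BL/6J, all 16 weeks old, with 2 arrays for each of 3 genotypes. Mice of all 3 groups carry Trsp with both alleles floxed (TrspFlox/Flox). TrspFF mice, the controls, carry these alleles alone, whereas Trsp-RIPKO mice also carry RIP-Cre and Trsp-Ins1KO mice also carry Ins1-Cre. Both drivers use insulin promoters, so recombination is directed at insulin-producing cells, and RIP-Cre is also known to act in some hypothalamic neurons. The share of sampled cells that lost Trsp was not measured, and no group with Cre but without floxed alleles was analysed here. The labels number the arrays of a genotype without saying that each came from its own mouse, so p-values measure the spread between arrays, which may be technical.

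Trsp encodes the transfer RNA that inserts selenocysteine into selenoproteins, and the deiodinases are selenoproteins. DIO2 converts thyroxine to the active hormone T3, in brain mostly in tanycytes and astrocytes, while DIO1 can both activate and inactivate and is known mainly from liver, kidney and thyroid. Neurons of the paraventricular nucleus release TRH to drive the pituitary, and T3 acting through its receptors represses Trh there. The arrays measure transcripts, and neither the enzymes nor hormone concentrations. No probe carried the name Trsp, so its deletion was not checked.

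The Dio2 and Trh promoters are shown because, in textbook accounts, cAMP signals raise both genes and T3 represses Trh. The 250 bases before the transcription start are printed 5′ to 3′ on the strand of the gene, from RefSeq tables of build GRCm38.p6, with the motifs found by a search of both strands in capitals. Dio2 lies on the minus strand of chromosome 12 (chr12:90739039-90739288), and its capitals mark a full cAMP response element, TGACGTCA, at -95 to -88 and a TATA box, TATAAA, at -30 to -25. Trh lies on the minus strand of chromosome 6 (chr6:92244651-92244900), and its capitals mark TGACCTCA at -57 to -50, a site at which a cAMP response element and a thyroid hormone receptor motif coincide.
Dio2: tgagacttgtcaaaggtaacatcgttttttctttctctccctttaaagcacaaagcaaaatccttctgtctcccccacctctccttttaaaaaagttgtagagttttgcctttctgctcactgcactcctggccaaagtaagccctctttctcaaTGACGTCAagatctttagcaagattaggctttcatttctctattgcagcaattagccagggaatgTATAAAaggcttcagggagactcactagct
Trh: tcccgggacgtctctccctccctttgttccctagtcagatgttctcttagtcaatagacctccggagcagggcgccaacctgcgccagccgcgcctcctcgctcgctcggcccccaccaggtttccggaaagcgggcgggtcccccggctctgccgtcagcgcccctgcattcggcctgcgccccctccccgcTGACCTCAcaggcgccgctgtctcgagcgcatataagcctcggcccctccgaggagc
In the Trh site, bases -57 to -52 read AGGTCA on the opposite strand, the core motif of nuclear receptors, so these matches overlap. Among 32851 promoter windows of the same length, 1.55% held TGACGTCA, 1.94% TGACCTCA, 14.0% AGGTCA and 12.4% TATAAA, on either strand. A match describes letters and does not show that a factor binds. The tables held 6 promoter entries for 5 of the 7 genes, and Thra and Trhr are named only.

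Each level below is the log2 processed signal of a probe minus the 75th percentile of its array, so 0 equals that percentile and a difference of 1 is a doubling. That percentile lay between 1391 and 2136 signal units, each array had 68.9% to 72.0% of its probes well above background, and saturation touched 0 probes. Of 11 hypothalamic marker genes, 9 were well above background on all arrays, while the transcription factor Otp was above it on none. Trsp-Ins1KO replicate 2 stood apart: its 10 choroid plexus markers averaged -2.80, against -0.21 to 0.69 on the other 5 arrays. TrspFF replicate 1 carried the pituitary subunit gene Cga at -1.78, against -5.88 or lower elsewhere, and Tshb at -5.30, against -6.73 or lower elsewhere. Other markers of that list did not single this array out. Prl read -6.03 there and was highest on Trsp-RIPKO replicate 2, at -5.11. Mtnr1a, by its brighter probe, read -4.82 there and was highest in Trsp-Ins1KO, at -4.46 and -4.48. Lhb read -4.18 and -4.23 in TrspFF. Of 8 pituitary and pars tuberalis markers, 5 were well above background on TrspFF replicate 1 and 2 or 3 on each other array. Pou1f1, Gh and Fshb stayed at background throughout.

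The names of the knockouts also conflict between deposited files. Each column of the authors' value table matched the scanner file of 1 array with r of at least 0.9999975, but the columns named Trsp-RIPKO matched the scanner files labelled Trsp-Ins1KO, and the reverse. Groups here follow the scanner file labels. Under the names of the value table, values given for the knockouts trade places and every difference between them changes sign.

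Both TrspFF arrays came from 1 slide and scan and all 4 knockout arrays from another. Slide and genotype thus cannot be told apart where TrspFF is compared, and both such comparisons use the same control arrays. Trsp-RIPKO against Trsp-Ins1KO was a comparison within 1 slide. All 3 comparisons were made with limma over all kept probes, and adjusted p refers to Benjamini-Hochberg adjustment over those 28064 probes, with a threshold of 0.05. Errors of differences are moderated standard errors (SE).

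None of the genes passed the threshold in any comparison: 0 of 11 probes, against 1.49% of all tested probes for Trsp-RIPKO minus TrspFF, 1.66% for Trsp-Ins1KO minus TrspFF and 0.0143% for Trsp-RIPKO minus Trsp-Ins1KO. At an unadjusted p under 0.05, limma gave 3 of 11 probes in the first comparison, 5 in the next and 6 between the knockouts, where the background was 23.9%, 25.6% and 18.2%. The groups did not overlap for 7, 7 and 9 of the 11 probes, against 58.1% of all probes in each comparison. Differences were above 0 for 5, 3 and 7 of the 11 probes, against 47.5%, 52% and 42.5% of all probes. The median absolute difference of the 11 probes was 0.33, 0.45 and 0.34, while that of all tested probes was 0.21, 0.22 and 0.18. With 2 arrays per group, these counts describe the arrays and do not single the genes out.

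**Figure D1:**
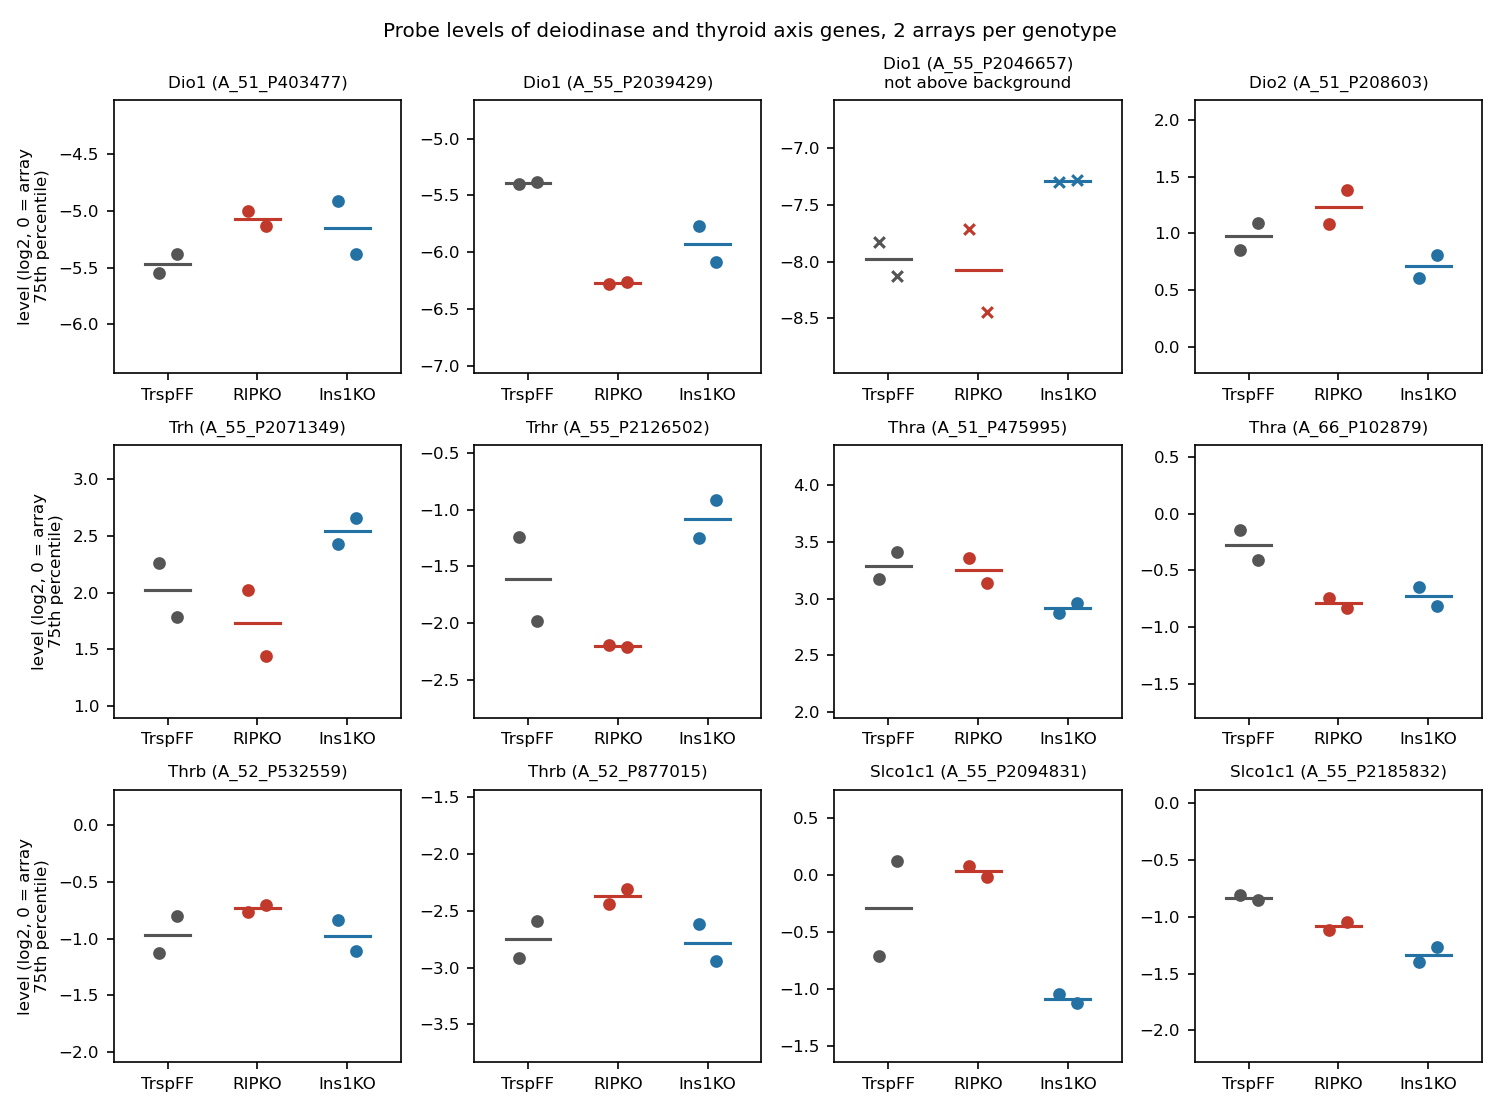
Level of each of the 12 probes on each array (log2, 0 is the 75th percentile of the array), with a bar at the mean of the 2 arrays of a genotype and crosses for the Dio1 probe that stayed at background. Every panel has its own range of levels over an equal span. The Trsp-RIPKO and Trsp-Ins1KO points do not overlap for 9 of the 11 tested probes: Trsp-RIPKO is higher for Dio2, both probes of Slco1c1, both of Thrb and Thra probe A_51_P475995, and lower for Trh, Trhr and Dio1 probe A_55_P2039429.

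Dio2 was read by 1 probe, well above background on all 6 arrays. Its level was 0.86 and 1.09 in TrspFF, 1.08 and 1.38 in Trsp-RIPKO, and 0.61 and 0.81 in Trsp-Ins1KO. Trsp-RIPKO was highest and Trsp-Ins1KO lowest, TrspFF overlapped Trsp-RIPKO, and the lowest TrspFF array lay just above the highest of Trsp-Ins1KO. The knockouts did not overlap: their difference was 0.52 (SE 0.159, limma adjusted p = 0.265), and 14.4% of tested probes differed by more. Against TrspFF, Dio2 differed by 0.26 (SE 0.159, adjusted p = 0.376) in Trsp-RIPKO and by -0.27 (adjusted p = 0.343) in Trsp-Ins1KO.

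Levels of tanycyte and astrocyte markers are given beside Dio2 because these cells are its known source. The summed level of 10 tanycyte markers, in multiples of the 75th percentile, was 6.54 to 7.57 in TrspFF, 7.35 to 7.92 in Trsp-RIPKO and 4.44 to 6.25 in Trsp-Ins1KO, with 8 of the 10 well above background on all arrays. The sum was lowest in Trsp-Ins1KO, as Dio2 was, but a few bright markers carry most of it. Crym, 1 of these, read 0.34 and -1.87 in Trsp-Ins1KO and 0.95 to 1.37 on the other arrays. The mean log2 level of the same markers did not follow Dio2: it was -2.59 to -2.33 in TrspFF, -2.41 to -2.17 in Trsp-RIPKO and -2.48 to -2.33 in Trsp-Ins1KO. Of the 9 tested tanycyte markers, 5 were higher and 4 lower in Trsp-RIPKO than in Trsp-Ins1KO. Against TrspFF, 4 were higher in Trsp-Ins1KO, such as Gpr50 at 0.73, and 5 lower, such as Vcan at -0.40. None passed the threshold. The 10 astrocyte markers summed to 199 to 211, 203 to 213 and 258 to 269 in the same order, which was highest where Dio2 was lowest. Aldoc, at 7.12 to 7.70 the highest of these markers, carries most of that sum. The mean log2 level of the 10 was 2.51 to 2.52 in TrspFF, 2.48 to 2.49 in Trsp-RIPKO and 2.59 on both Trsp-Ins1KO arrays. The part of cell composition in the Dio2 values was not tested, and in bulk tissue fewer cells of a type cannot be told apart from less RNA per cell.

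Dio1 was close to background, and its probes disagreed. Probe A_55_P2039429 gave the smallest adjusted p of all member probes: it read -5.40 and -5.38 in TrspFF, -6.28 and -6.26 in Trsp-RIPKO, and -5.77 and -6.09 in Trsp-Ins1KO. Both knockouts lay below TrspFF, and Trsp-RIPKO below Trsp-Ins1KO, but only 1 of the 2 Trsp-RIPKO arrays was well above background. Its difference from TrspFF was -0.88 (SE 0.127, limma adjusted p = 0.0548) in Trsp-RIPKO and -0.54 (adjusted p = 0.0989) in Trsp-Ins1KO, and with another background correction (normexp) these came to -0.08 and -0.11.

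The other Dio1 probe, A_51_P403477, was well above background on all arrays with processed signals of only 29.7 to 60.7 units. It read -5.55 and -5.38 in TrspFF, -5.00 and -5.14 in Trsp-RIPKO, and -4.91 and -5.38 in Trsp-Ins1KO. Here the TrspFF mean was lowest, the reverse of the other probe, although 1 TrspFF and 1 Trsp-Ins1KO array lay level: the difference from TrspFF was 0.40 (SE 0.182, adjusted p = 0.264) in Trsp-RIPKO and 0.32 (adjusted p = 0.330) in Trsp-Ins1KO. No direction for Dio1 is therefore given.

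Trh, the precursor gene of the hormone, stood at 2.26 and 1.78 in TrspFF, 2.03 and 1.44 in Trsp-RIPKO, and 2.42 and 2.66 in Trsp-Ins1KO. Both Trsp-Ins1KO arrays were above the other 4, and TrspFF and Trsp-RIPKO overlapped. Between the knockouts Trh was 0.81 lower on the log2 scale in Trsp-RIPKO, a 1.75-fold difference (SE 0.264, limma adjusted p = 0.265), and 7.38% of tested probes differed by more. Trsp-Ins1KO minus TrspFF was 0.52 (SE 0.264, adjusted p = 0.283). Trsp-RIPKO minus TrspFF was -0.29 (adjusted p = 0.527), and without Trsp-RIPKO replicate 2 it was 0.0012.

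Trhr encodes the receptor through which TRH acts on pituitary cells and on many neurons. Its level was -1.24 and -1.98 in TrspFF, -2.19 and -2.21 in Trsp-RIPKO, and -1.25 and -0.92 in Trsp-Ins1KO. The Trsp-RIPKO arrays were the lowest of all and lay close together, the Trsp-Ins1KO arrays were high, and the TrspFF arrays were widely spread and overlapped Trsp-Ins1KO. Trsp-RIPKO was 2.17-fold lower than Trsp-Ins1KO, a difference of -1.12 (SE 0.267, limma adjusted p = 0.265) that 4.24% of tested probes exceeded in size. Against TrspFF the differences were -0.59 (adjusted p = 0.259) in Trsp-RIPKO and 0.53 (adjusted p = 0.281) in Trsp-Ins1KO.

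Hypothalamic marker genes moved with Trh and Trhr between the knockouts. All 10 tested hypothalamic markers were lower in Trsp-RIPKO than in Trsp-Ins1KO, a comparison in which 42.5% of all tested probes lay above 0. Their median was -0.55 against -0.05 over all tested probes, and none passed the threshold. The groups overlapped for some of them, such as Pomc at -0.08. Against TrspFF, 7 of the 10 were higher in Trsp-RIPKO, with a median of 0.18, whereas Trh and Trhr were lower there. In Trsp-Ins1KO 9 of the 10 were above TrspFF, with a median of 0.62, as Trh and Trhr were. Of the 6 tested paraventricular markers 5 were lower in Trsp-RIPKO than in Trsp-Ins1KO, among them Avp at -1.10 and Oxt at -0.76, which encode vasopressin and oxytocin (limma adjusted p = 0.265 for both). Sim1, Otp, Avp and Oxt are on both lists, so these counts overlap. The summed level of all 7 paraventricular markers was 32.1 to 43.8 in TrspFF, 35.7 to 50.5 in Trsp-RIPKO and 74.1 to 77.0 in Trsp-Ins1KO. Avp and Oxt read far above 0 and carry most of that sum. The mean log2 level of the 7 was -2.13 to -1.65 in TrspFF, -2.25 to -2.05 in Trsp-RIPKO and -1.75 to -1.70 in Trsp-Ins1KO, so TrspFF replicate 1 lay above both Trsp-Ins1KO arrays. Sim1 and Pou3f2, transcription factors of these neurons, were lower in Trsp-Ins1KO than in TrspFF, at -1.06 (limma adjusted p = 0.229) and -0.27 (adjusted p = 0.214). Of the 7 markers, 5 were well above background on all arrays and Otp on none. Sim1 was so on both TrspFF arrays and Trsp-Ins1KO replicate 2 only, so it was tested through TrspFF, where it was highest. Its knockout levels lie near background, so the Sim1 differences, also counted above, are not read as a direction. The 11 hypothalamic markers summed to 81.2 to 85.5, 73.9 to 101 and 135 to 145 in the same order of genotypes. A few peptide genes, Avp and Oxt among them, carry most of that sum too, so the sums of both lists overlap. The part of these shifts in the Trh and Trhr values was not tested.

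Slco1c1 encodes the thyroxine transporter OATP1C1 of brain capillaries, astrocytes and choroid plexus. Probe A_55_P2094831 read -0.71 and 0.13 in TrspFF, 0.08 and -0.01 in Trsp-RIPKO, and -1.05 and -1.13 in Trsp-Ins1KO. Both Trsp-Ins1KO arrays were the lowest of all, while the TrspFF arrays were far apart and spanned both Trsp-RIPKO values. Trsp-RIPKO exceeded Trsp-Ins1KO by 1.12 (SE 0.282, limma adjusted p = 0.265), a 2.17-fold difference, and 4.19% of tested probes differed by more. In a fit of the knockout arrays alone this value had a limma adjusted p of 0.0335, within a range of 0.0335 to 0.600 over the alternatives. The difference from TrspFF was -0.79 (SE 0.282, adjusted p = 0.172) in Trsp-Ins1KO and 0.33 (adjusted p = 0.508) in Trsp-RIPKO. Without TrspFF replicate 1 these were -1.21 (adjusted p = 0.0383, range over the alternatives 0.0383 to 0.409) and -0.09.

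The probe A_55_P2185832 of Slco1c1 gave smaller differences. It read -0.81 and -0.85 in TrspFF, -1.12 and -1.05 in Trsp-RIPKO, and -1.40 and -1.27 in Trsp-Ins1KO, so the genotypes did not overlap and Trsp-Ins1KO was again lowest. Trsp-Ins1KO minus TrspFF was -0.50 (SE 0.0913, limma adjusted p = 0.0719), and with normexp it was -0.55 (adjusted p = 0.0495, range over the alternatives 0.0444 to 0.203). Trsp-RIPKO minus Trsp-Ins1KO was 0.25 (SE 0.0913, adjusted p = 0.267). Trsp-RIPKO minus TrspFF was -0.25 (adjusted p = 0.194), opposite in sign to the other probe. Both probes thus placed Trsp-Ins1KO lowest and disagreed on Trsp-RIPKO against TrspFF.

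Endothelial markers were mostly lowest in Trsp-Ins1KO, as both Slco1c1 probes were. Of 10 brain endothelial markers, all well above background on every array, 9 were higher in Trsp-RIPKO than in Trsp-Ins1KO, with a median of 0.71, and none passed the threshold. Against TrspFF, all 10 were lower in Trsp-Ins1KO, while 6 were higher and 4 lower in Trsp-RIPKO. Abcb1a, the drug efflux pump of the blood-brain barrier, differed by 1.08, Cdh5, the endothelial cadherin, by 0.90 and Cldn5, a tight junction claudin, by 0.69. The 10 markers summed to 14.5 to 16.2 in TrspFF, 16.2 to 16.6 in Trsp-RIPKO and 11.9 to 14.1 in Trsp-Ins1KO, and their part in the Slco1c1 values was not tested. Astrocyte markers went the other way: 7 of 10 were lower in Trsp-RIPKO than in Trsp-Ins1KO, with a median of -0.21, and their part was not tested either. Within Trsp-Ins1KO, probe A_55_P2094831 read -1.05 on replicate 1 and -1.13 on replicate 2, where the mean level of choroid plexus markers was -0.21 and -2.80, and the part of those markers was not tested.

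**Figure D2:**
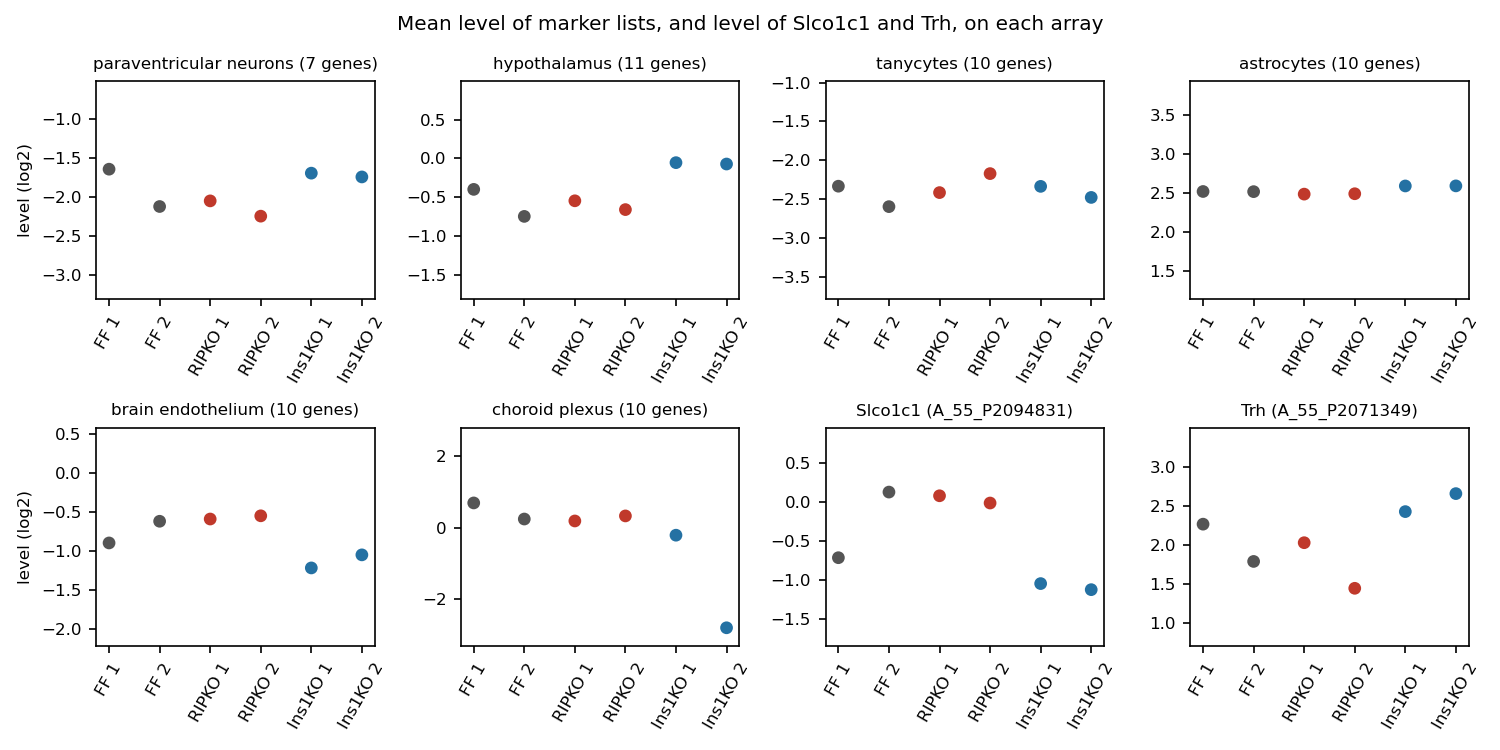
Mean level (log2) of 6 marker lists and the level of 1 Slco1c1 probe and of Trh on each of the 6 arrays. The Trsp-Ins1KO arrays have the lowest endothelial means (-1.22 and -1.05) and the lowest Slco1c1 values, and the highest hypothalamic means and Trh values; the choroid plexus mean drops to -2.80 on Trsp-Ins1KO replicate 2 alone.

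Leaving out Trsp-Ins1KO replicate 2, the array with low choroid plexus genes, kept the sign of these differences between the knockouts. Without it, Trsp-RIPKO minus Trsp-Ins1KO was 0.63 for Dio2, -0.69 for Trh, -0.95 for Trhr and 1.08 for Slco1c1 probe A_55_P2094831.

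Thra encodes the receptor isoforms that predominate in brain, together with a splice variant that does not bind T3, and both of its probes are annotated to the same transcript. Probe A_51_P475995 read 3.17 and 3.41 in TrspFF, 3.36 and 3.14 in Trsp-RIPKO, and 2.87 and 2.97 in Trsp-Ins1KO. Here both Trsp-Ins1KO arrays were lowest and the other genotypes overlapped: Trsp-Ins1KO minus TrspFF was -0.37 (SE 0.134, limma adjusted p = 0.175), Trsp-RIPKO minus TrspFF was -0.04 and Trsp-RIPKO minus Trsp-Ins1KO was 0.33 (adjusted p = 0.278).

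Probe A_66_P102879 of Thra set both knockouts apart from TrspFF. It read -0.14 and -0.41 in TrspFF, -0.74 and -0.83 in Trsp-RIPKO, and -0.64 and -0.81 in Trsp-Ins1KO. The knockouts overlapped each other and both lay below TrspFF, by -0.51 (SE 0.129, limma adjusted p = 0.118) in Trsp-RIPKO and -0.45 (SE 0.129, adjusted p = 0.126) in Trsp-Ins1KO. With normexp background correction the same differences were -0.76 (adjusted p = 0.0433) and -0.73 (adjusted p = 0.0432), past the threshold. Over all alternatives the adjusted p ranged from 0.0433 to 0.427 and from 0.0432 to 0.367.

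Nr1d1, the clock repressor gene transcribed from the strand opposite Thra, overlaps the Thra variant that does not bind T3. It lay 0.55 above TrspFF (SE 0.176, limma adjusted p = 0.164) and 0.60 above Trsp-Ins1KO (adjusted p = 0.265) in Trsp-RIPKO. Nr1d1 and probe A_51_P475995 of Thra were each higher in Trsp-RIPKO than in Trsp-Ins1KO, but only Nr1d1 also exceeded TrspFF there, and neither difference passed the threshold.

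Thrb encodes the receptor that mediates feedback of T3 on Trh, and its probes agreed. Probe A_52_P532559 read -1.13 and -0.80 in TrspFF, -0.76 and -0.70 in Trsp-RIPKO, and -0.84 and -1.11 in Trsp-Ins1KO. Probe A_52_P877015 read -2.91 and -2.59, -2.44 and -2.31, and -2.61 and -2.94 in the same order. On both probes Trsp-RIPKO was highest without overlap, and TrspFF and Trsp-Ins1KO overlapped. Trsp-RIPKO minus TrspFF was 0.23 (SE 0.159, limma adjusted p = 0.412) and 0.38 (SE 0.171, adjusted p = 0.258), and Trsp-RIPKO minus Trsp-Ins1KO was 0.24 (adjusted p = 0.419) and 0.41 (adjusted p = 0.284). Trsp-Ins1KO minus TrspFF was -0.01 and -0.03, with 95% intervals of -0.42 to 0.40 and -0.47 to 0.41.

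**Figure D3:**
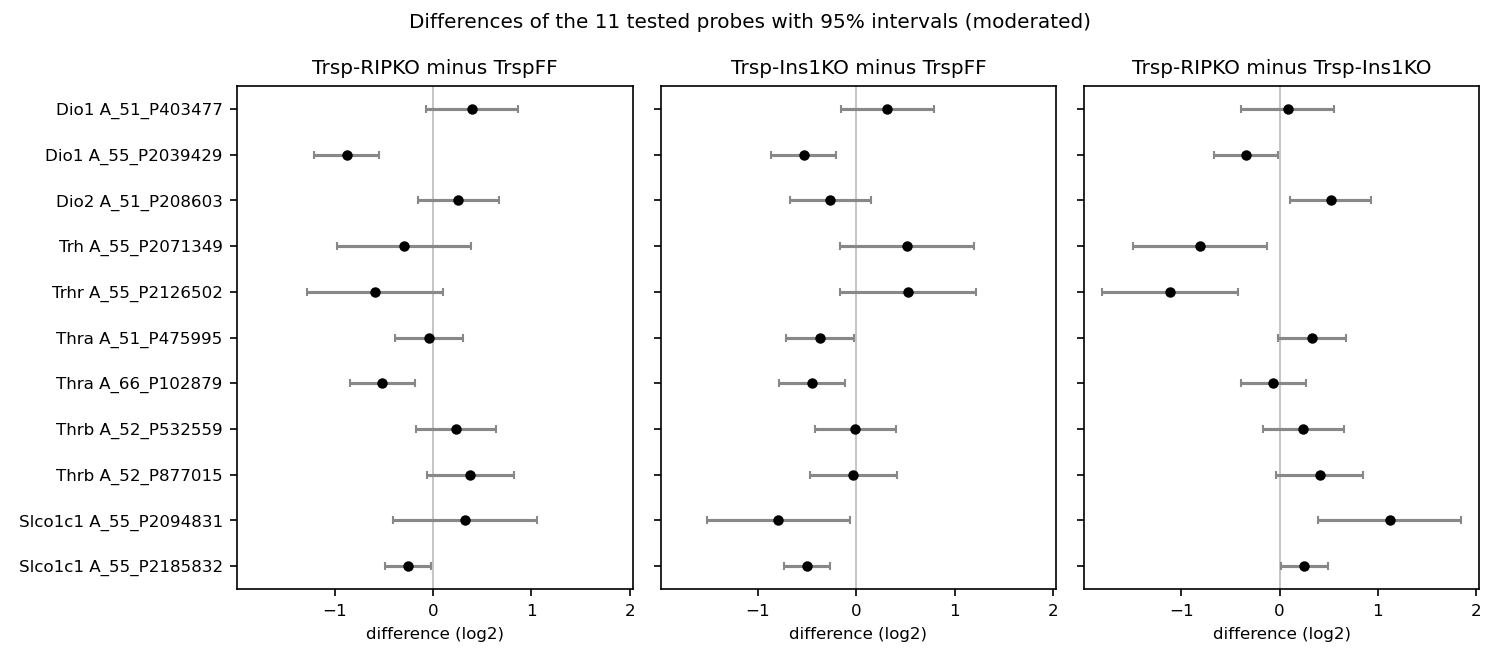
Difference in level (log2) of the 11 tested probes in each of the 3 comparisons, with 95% intervals from the moderated standard errors. The interval of Dio1 probe A_55_P2039429 lies below 0 in Trsp-RIPKO minus TrspFF (-1.21 to -0.55) while the point of the other Dio1 probe lies above 0 with an interval that includes it (-0.07 to 0.87), and no probe passed the threshold adjusted over 28064 probes.

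A further 49 genes of the pathway were examined, of which 48 had a tested probe, and none passed the threshold in any comparison. At an unadjusted p under 0.05 there were 17, 15 and 12 of 48 genes for Trsp-RIPKO minus TrspFF, Trsp-Ins1KO minus TrspFF and Trsp-RIPKO minus Trsp-Ins1KO, where 23.9%, 25.6% and 18.2% of all tested probes did so. The medians of the 48 differences were 0.01, -0.02 and -0.02, next to -0.02, 0.02 and -0.05 over all tested probes. Dio3, which encodes the deiodinase that inactivates thyroxine and T3, was not tested, since its probe was well above background on 1 array only. Each of the 48 genes is represented by its brightest tested probe, here and below. The shares and medians over all tested probes include dim and unnamed probes, so they are not like for like.

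Among 10 genes of thyroid hormone transport and binding, 0 passed the threshold and 8 were higher in Trsp-RIPKO than in Trsp-Ins1KO, with a median of 0.17. Slco1a4, an organic anion transporter of brain capillaries, read -1.29 and -0.56 in TrspFF, -0.12 and -0.05 in Trsp-RIPKO, and -1.36 and -1.35 in Trsp-Ins1KO. The Trsp-RIPKO arrays were the highest of all, and the difference from Trsp-Ins1KO was 1.26 (SE 0.248, limma adjusted p = 0.265). Slco1a4 thus had its lowest mean in Trsp-Ins1KO, as Slco1c1 did.

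Ttr and Crym, which encode the carrier transthyretin and a cytosolic T3-binding protein, were looked at after their values were seen. Ttr read between 5.39 and 6.31 on 5 arrays and -0.95 on Trsp-Ins1KO replicate 2, and Crym read 0.34 to 1.37 and -1.87. On the same array the choroid plexus markers were low, Ttr being 1 of them.

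A list of 7 genes held 6 that process or degrade TRH and Trhr2, which encodes another TRH receptor. Of the 7, 0 passed and 6 were lower in Trsp-RIPKO than in Trsp-Ins1KO, with a median of -0.28; Trhr2 was among these at -0.06, with overlapping groups. Pcsk1 encodes a prohormone convertase, and its difference between the knockouts was -0.57 (SE 0.155, limma adjusted p = 0.265), in the direction of Trh itself. Cpe, the carboxypeptidase that trims cut peptides, differed by -0.32 (adjusted p = 0.265). Trhde, the enzyme that breaks TRH down outside cells, was the exception at 0.97 (SE 0.224, adjusted p = 0.265). Pcsk2, another convertase, came closest to the threshold of all 48 genes, at 0.59 above TrspFF in Trsp-Ins1KO (SE 0.0846, adjusted p = 0.0545) and 0.49 in Trsp-RIPKO (adjusted p = 0.0708). Another probe of Pcsk2 ran the other way, with mean levels of 3.18 in TrspFF, 3.12 in Trsp-RIPKO and 2.77 in Trsp-Ins1KO.

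The 6 tested genes of DIO2 protein turnover differed by -0.17 to 0.14 between the knockouts, with a median of -0.09. Wsb1, part of the ubiquitin ligase that marks DIO2, was 0.56 (SE 0.206, limma adjusted p = 0.196) and 0.61 (adjusted p = 0.161) above TrspFF in Trsp-RIPKO and Trsp-Ins1KO. Marchf6, a further DIO2 ligase, was 0.36 above TrspFF in Trsp-RIPKO (adjusted p = 0.166). None of the 6 passed in any comparison.

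Of 13 receptor partners and cofactors, 0 passed. Rxrg, a retinoid X receptor that pairs with thyroid hormone receptors, lay below TrspFF by -0.50 in Trsp-RIPKO (SE 0.0782, limma adjusted p = 0.0613) and by -0.31 in Trsp-Ins1KO (adjusted p = 0.106). A further Rxrg probe averaged 0.64 in TrspFF, 0.39 in Trsp-RIPKO and 1.02 in Trsp-Ins1KO, so the probes agreed for Trsp-RIPKO and not for Trsp-Ins1KO. Gps2, a subunit of the NCOR corepressor complex, was 0.66 above TrspFF in Trsp-RIPKO (SE 0.120, adjusted p = 0.0763). Ncor1, the corepressor itself, was 0.44 higher in Trsp-RIPKO than in Trsp-Ins1KO (SE 0.104, adjusted p = 0.265).

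Genes known to be raised by T3 in brain lay on both sides of 0, and none of them passed. Of 12 such genes, 8 were above TrspFF in Trsp-RIPKO and 7 in Trsp-Ins1KO, with medians of 0.12 and 0.19, and 6 were higher and 6 lower in Trsp-RIPKO than in Trsp-Ins1KO. Hr, a corepressor that responds to T3, was 0.66 above TrspFF in Trsp-RIPKO (SE 0.195, limma adjusted p = 0.147). Shh, the morphogen gene, and Flywch2 were 0.67 (adjusted p = 0.0990) and 0.59 (adjusted p = 0.0762) above TrspFF in Trsp-Ins1KO. Mbp, the myelin basic protein gene, was at -0.51 there (adjusted p = 0.0939), and a further Mbp probe averaged 1.59 in TrspFF and 1.55 in Trsp-Ins1KO.

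**Figure D4:**
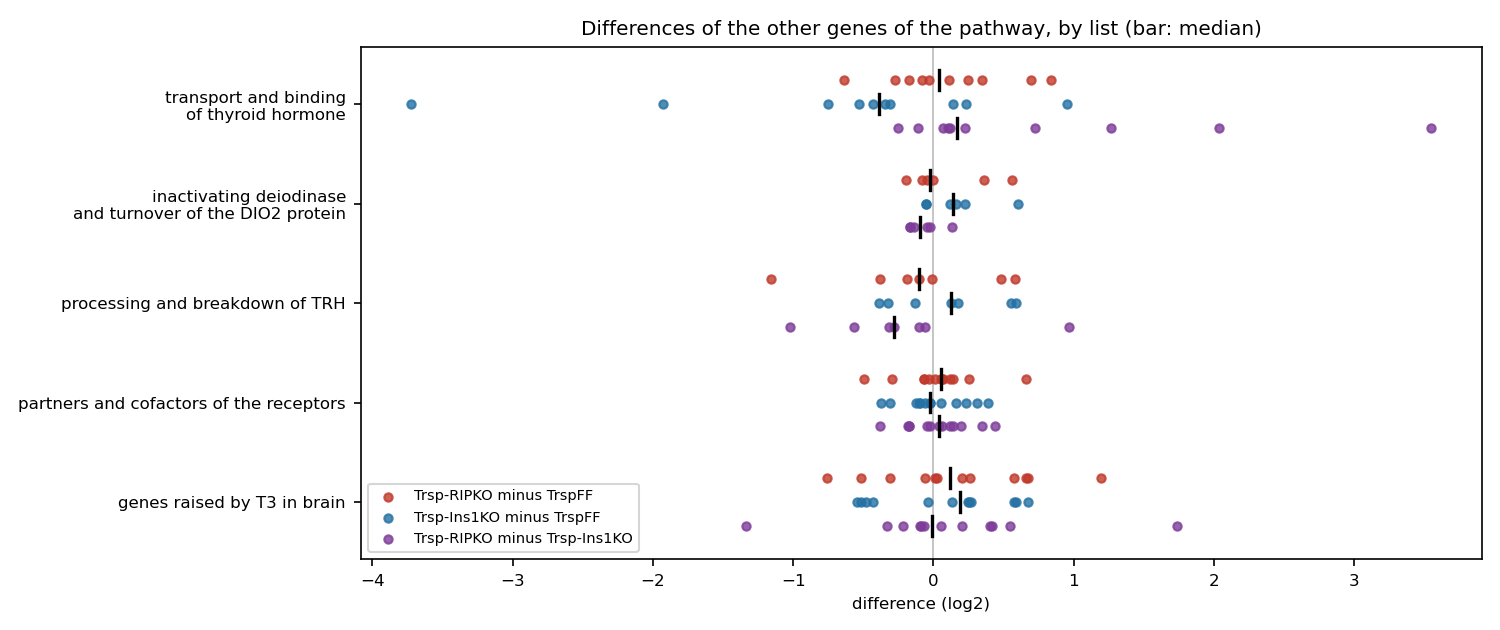
Difference in level (log2) of each of the 48 tested pathway genes, in 5 lists (the TRH list also holds the receptor gene Trhr2) and 3 comparisons, with a bar at the median of a list. The points far to the left and right among the transport genes are Ttr and Crym, which were low on Trsp-Ins1KO replicate 2, and the medians lie between -0.39 and 0.19.

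To show which genes had profiles most like those of the members, each probe was centred on its mean over the 6 arrays and the root mean square (RMS) difference was taken over 15097 genes by their brightest tested probe. For Slco1c1, whose own RMS about its mean was 0.53, the closest were Pla1a (RMS difference 0.0514), Pdhb (0.0918) and Kcnj8 (0.0927). Trh, with an RMS of 0.40, was nearest to Slc25a41 (0.0770), Lbhd2 (0.102) and Slc25a34 (0.102), and Trhr, with 0.51, to Soat1 (0.0906), Hmx2 (0.101) and Mtfr1 (0.103). Dio2, with 0.25, was nearest to Pls1 (0.0514), Tgfa (0.0544) and Gtf2h2 (0.0605). Dio1, Thra and Thrb varied less, with an RMS of 0.17 to 0.23. The nearest genes were Arhgap40, Igsf3 and Mgll for Dio1, Gigyf1, Zkscan3 and Ccdc84 for Thra, and Zfp709, Ints6l and Cxcr3 for Thrb. No member was among the 3 nearest genes of another, and likeness over 6 arrays is given as a description.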

How the data were processed

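Total RNA was labelled with Cy3 and hybridised to Agilent mouse arrays, per the labels' protocols. The authors' deposited scanner files give spot intensity after background subtraction by Agilent Feature Extraction 10.7.3.1, with annotation on mm9, per the file headers. The authors' deposited value table holds log2 values centred on each probe's median over 6 arrays; how arrays were scaled there is unstated in the labels and headers, and its columns have medians of -0.050 to 0.051.

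Here flagged spots were left out, spots of a probe were averaged, and 43020 spots gave 39429 probes; 118 with only flagged spots on an array were not tested. A probe was kept if well above background on both arrays of a genotype. Symbols came from transcript accessions and a RefSeq table of build GRCm38.p6, which named 26055 probes (66.1%) and not 13374. The test was limma 3.58.1 under R 4.3.3 (lmFit and eBayes, all 6 arrays, no covariate), after a test on simulated data. Genes and lists were chosen with earlier results of these data known. All member probes are reported; from each list, genes that passed could be named, or else at most 4 by smallest p, and for each member the 3 nearest profiles. Some list members are counted and not reported by name here.

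Alternatives were quantile normalization, the array median, normexp with an offset of 50 on median spot signals, the deposited value table under either naming, no filter, a filter on all 6 arrays, 1 value per gene (its brightest probe, or all its probes averaged), eBayes with trend and robust, fits that hold only the 2 compared groups, the replicate number as a block, and leaving out each array. Promoters were searched with pandas 2.3.3.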

Additional observations from a re-analysis of the deposited data

Results flagged for a closer look

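Of the 11 tested probes, 3 had both arrays of one knockout above and both arrays of the other below the TrspFF mean, as had 4653 of all 28064 tested probes (16.6%). As Trsp-RIPKO minus Trsp-Ins1KO, Dio2 differed by 0.52, Trhr by -1.12 and Slco1c1 probe A_55_P2094831 by 1.12. Each of these differences had a limma adjusted p of 0.265, which did not pass the threshold. Placement on opposite sides of TrspFF was not tested, the probes were picked for it, and Trsp-RIPKO overlapped TrspFF for Dio2 and this Slco1c1 probe, as Trsp-Ins1KO did for Trhr. The share of these probes is read from 11 probes and is not evidence that the genes stand apart.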

How the results depend on the processing

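Of the 33 member differences, 29 kept their sign in every alternative fitted per probe under the scanner file names, and 26 when each array was left out; under the knockout names of the value table all those between the knockouts turn. In most alternatives 0 of 11 member probes passed. The exceptions were normexp, with 1 for Trsp-RIPKO minus TrspFF and 2 for Trsp-Ins1KO minus TrspFF (Thra A_66_P102879 and, in the latter, Slco1c1 A_55_P2185832), the trend and robust fit, with 1 for Trsp-Ins1KO minus TrspFF (Slco1c1 A_55_P2185832 at -0.50, adjusted p = 0.0444), and the fit of only the 2 groups compared, with 1 between the knockouts (Slco1c1 A_55_P2094831). Leaving out 1 array gave 0 in every case for Trsp-RIPKO minus TrspFF and 0 to 1 for each other comparison, the 1 arising without TrspFF replicate 1 for Trsp-Ins1KO minus TrspFF and without either TrspFF array between the knockouts. The cause was not tested, except that leaving out a TrspFF array leaves the spread to the knockout arrays.

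Over all probes, limma called 417 for Trsp-RIPKO minus TrspFF, and 210 with the array median, 1016 with trend and robust and 0 with no filter, with only the 2 groups or with the replicate block (6157, 5801 and 6691 at an unadjusted p under 0.05). Leaving out 1 array gave 0 to 526: 526 without TrspFF replicate 2, 35 without Trsp-RIPKO replicate 1 and 0 without any of the other 4. For Trsp-Ins1KO minus TrspFF 466 were called, and 756 with normexp, 28 with no filter, 1602 with trend and robust and 0 with only the 2 groups or with the replicate block (5972 and 6983 unadjusted). Leaving out 1 array gave 0 to 538: 538 without TrspFF replicate 1, 1 without Trsp-Ins1KO replicate 2 and 0 without any of the other 4. Between the knockouts 4 were called, and 1 with normexp or with trend and robust, 2 with the filter on all 6 arrays, 384 with only the 2 groups and 0 with no filter or the replicate block (4720 and 5166 unadjusted). Leaving out 1 array gave 0 to 384: 384 without either TrspFF array, 29 without Trsp-RIPKO replicate 1, 1 without Trsp-Ins1KO replicate 2 and 0 without Trsp-RIPKO replicate 2 or Trsp-Ins1KO replicate 1. The fitted counts of 0 that arise from leaving out arrays had 3386 to 5801, 5262 to 5972 and 2008 to 2948 probes at an unadjusted p under 0.05 in these comparisons. The share of calls that were lower was 95% for Trsp-RIPKO minus TrspFF (83.1% with normexp, 76.5% with trend and robust) and 87.6% for Trsp-Ins1KO minus TrspFF (68.4% and 54.9%).

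Same-numbered arrays did not deviate together (correlation of deviations -0.017, 0.089 and -0.013), so the numbers were not taken to pair samples, and the replicate block left 0 of 11 member probes past the threshold in each comparison. Precision is limited by 2 arrays per genotype. Over all probes, replicate arrays differed with an SD of 0.51 in TrspFF, 0.42 in Trsp-RIPKO and 0.43 in Trsp-Ins1KO (log2). Dio1 lies near background. An array left alone in its genotype was assumed to vary like the others.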
